A study of Mus musculus with 2 samples.

Results

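The nuclei described here are cortical neurons that carried *Atf3* transcript at 7 days after mild traumatic brain injury (mTBI), set against neurons of the same subclass and library in which none was found. Neurons were the nuclei that the authors kept as neurons and labelled with a subclass. Each nucleus with at least 2300 unique molecular identifiers (UMIs, 1 per captured RNA molecule) was thinned at random to 2300, so that depth could not set its status. A nucleus with at least 1 *Atf3* UMI after thinning was positive and a nucleus with none was negative. Of 8171 labelled nuclei, 2580 were in the neuronal set and 2075 of these were deep enough, and 430 were positive and 1645 negative. The depth limit left out 388 neuronal nuclei of the male and 117 of the female library.

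ATF3 is a bZIP transcription factor of the ATF/CREB family that is nearly silent in resting neurons and is switched on by axon injury and other cell stress. It binds DNA as a homodimer or together with JUN proteins, at CRE and AP-1 sites, and can repress or activate genes. In injured sensory neurons it is part of the program of regeneration-associated genes, and it is used as a mark of damaged neurons.

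Nuclei came from the ipsilateral cortex of mice of genotype Atf3-CreER:+/wt; SUN-SfGFP:+/wt, aged over 7 weeks, all given mTBI and collected at 7 dpi after tamoxifen at 4 and 5 dpi. GFP+/DRAQ5+ nuclei were sorted, which selects cells in which Cre driven by *Atf3* had acted, on the positive and the negative side alike, and no uninjured group was compared. There were 2 libraries, each 1 pool of 4 animals. The library named as female is called that here, although its label fields for source and sex say male. The male library held 4003 nuclei with 10823188 UMIs and the female library 4168 nuclei with 23127629 UMIs. Among the deep neuronal nuclei, the median before thinning was 4746.5 UMIs for the male and 9310 for the female library. No neuronal barcode was found in both libraries. Since the status was set by *Atf3* itself, all values of the drawn *Atf3* UMIs are descriptions, and *Atf3* was left out of the tests.

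Inhibitory neurons were positive more often than excitatory neurons in both libraries. Of the inhibitory nuclei, 27.6% were positive in the male library (77 of 279, exact binomial 95% interval 22.4% to 33.2%) and 42.2% in the female library (140 of 332, 36.8% to 47.7%). Of the excitatory nuclei, 11.8% were positive in the male (84 of 711, 9.53% to 14.4%) and 17.1% in the female library (129 of 753, 14.5% to 20.02%). These intervals cover counting error only, not the spread between animals.

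Among the subclasses, *Pvalb* nuclei, the fast-spiking basket and chandelier cells, had the highest share of those with at least 20 nuclei, at 37.7% of male and 57.1% of female nuclei. *Sst* nuclei, interneurons that target dendrites, were at 23.3% of male and 31.4% of female nuclei. L6 IT CTX nuclei had the highest share of the excitatory labels with at least 20 nuclei, with 28.6% of 28 male and 32.2% of 59 female nuclei positive. *Vip* nuclei were at 18.5% of 27 male and 38.5% of 26 female nuclei, with intervals that overlapped those of all neighbors in this order. The subcortically projecting L5 PT CTX nuclei were positive in 13.4% of male and 18.9% of female nuclei. Upper-layer L2/3 IT CTX-1 nuclei were at 10.3% and 13.1%, and L4/5 IT CTX nuclei at 10% and 8.57%.

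**Figure D1:**
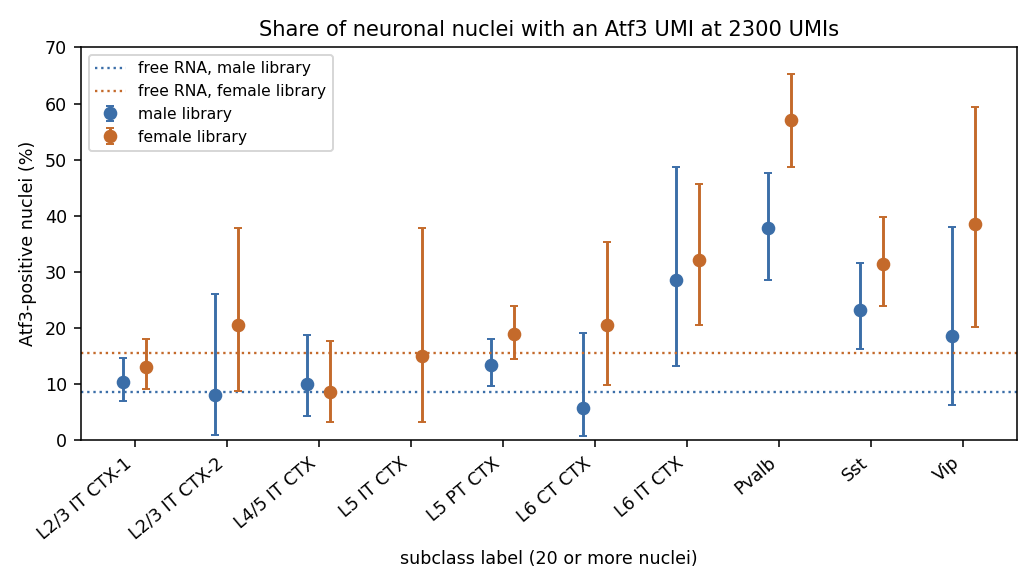
Percent of nuclei with at least 1 *Atf3* UMI after thinning to 2300 UMIs, by subclass label with at least 20 nuclei and by library. Points are shares with exact binomial 95% intervals, and dotted lines give the share that nuclei made wholly of free RNA would show, 8.65% (male) and 15.6% (female). *Pvalb* nuclei lie highest in both libraries.

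No cell type here is a blank for *Atf3*, since every sorted nucleus came through the same *Atf3*-driven gate, so the other cell types are given only for reference. At the same depth, 0 of 87 astrocyte nuclei were positive, which allows a share of up to 3.45% by the limit of 3 counts, with an exact binomial 95% upper bound of 4.15%. Of 303 vascular nuclei, 4 were positive (1.32%), and of 46 oligodendrocyte nuclei 2 (4.35%, 0.531% to 14.8%). Microglial nuclei were positive in 5.15% of male and 6.04% of female nuclei. Median depths before thinning were 4679 UMIs for astrocytes and 4697 for vascular nuclei, against 6351 for the neurons. Free RNA, taken from barcodes with at most 100 UMIs, held *Atf3* at 39.3 CPM (UMIs scaled to a total of 1000000) in male and 73.9 CPM in female barcodes. A nucleus made wholly of that RNA would be positive in 8.65% and 15.6% of cases. The shares of L2/3 IT CTX-1 and L4/5 IT CTX were above the free RNA value in the male and below it in the female library, and those of *Pvalb* and *Sst* lay above them in both libraries. How many positive nuclei owed their status to free RNA was not tested.

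Most positive nuclei sat at the threshold. A single UMI was drawn in 285 of them, 2 UMIs in 88 and at least 3 in 57, and the highest count was 8, in a male *Pvalb* nucleus. Just outside the threshold, the 1645 negative nuclei had 0. Of the 217 positive inhibitory nuclei, 53 had 2 UMIs and 40 at least 3, against 35 and 17 of 213 excitatory ones.

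The UMIs that thinning left out hold a second look at *Atf3* that the rule did not use. In nuclei with at least 4600 UMIs, these undrawn UMIs held *Atf3* at 245 CPM in positive and 59.6 CPM in negative nuclei of the male library, and at 416 and 86.2 CPM in the female library. The level was higher in the positive nuclei in each of the 10 library and subclass pairs that entered the tests. In female L6 IT CTX nuclei it was 451 CPM against 65.3 CPM, and in female L2/3 IT CTX-1 nuclei 254 CPM against 46.6 CPM. The distance was smaller in female *Pvalb* nuclei, where the negative side still held 294 CPM against 567 CPM. Negative female *Pvalb* nuclei thus had more undrawn *Atf3* than positive nuclei of L5 PT CTX in that library (224 CPM). Male L2/3 IT CTX-1 nuclei gave the lowest positive value, 81.5 CPM from 5 UMIs in 12 nuclei, against 37.3 CPM. Negative therefore means that no UMI was drawn, and not that *Atf3* was absent.

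**Figure D2:**
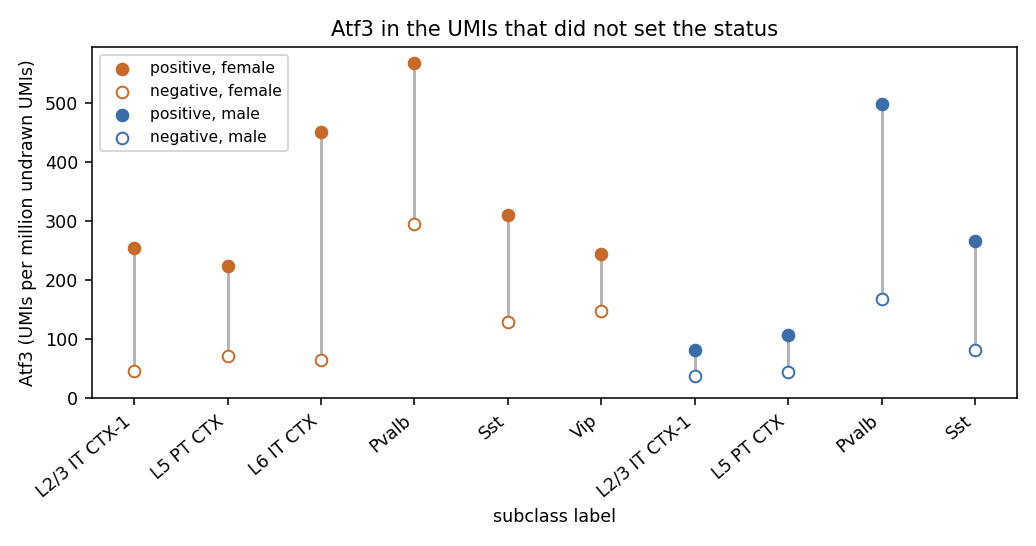
*Atf3* in the UMIs left out by thinning, in CPM of the undrawn UMIs, for nuclei with at least 4600 UMIs, with filled points for positive and open points for negative nuclei of each library and subclass label. The filled point is above the open one in all 10 pairs, and both points of female *Pvalb* lie above 290.

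To ask which other transcripts accompany *Atf3*, UMIs were summed per library, subclass and status where each side had at least 10 nuclei. This gave 10 pairs with 374 positive and 1280 negative nuclei: *Pvalb*, *Sst*, L2/3 IT CTX-1 and L5 PT CTX from both libraries, and L6 IT CTX and *Vip* from the female library. The smallest pair was female *Vip* (10 positive, 16 negative) and the largest positive side was female *Pvalb* (84). Sums were compared within pairs with edgeR's quasi-likelihood test. Pairs of a library share a pool of animals, so the p-values cover the spread between pairs, not between animals.

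Of 1795 genes tested, 9 rose in positive nuclei (0.501%) and 9 fell (0.501%) at an adjusted p under 0.05. At an unadjusted p under 0.05 there were 91 and 96. The median log2 fold change over all genes was 0.01 and 51.5% of the estimates were above 0. The 9 that rose were *Jun*, *Egr1*, *Irs2*, *Scg2*, *Ltbp1*, *Lifr*, *Man1a*, *Maml2* and *Chl1*. The 9 that fell were *Dpp10*, *Cdh12*, *Galntl6*, *Grm5*, *Lrrtm4*, *Il1rapl1*, *Ptprd*, *Lsamp* and *Opcml*. Which genes passed also depended on the random draw. With seed 2, 11 of the 16 of these genes that were tested were called again, and with seed 3, 4 of 17. The calls depended on the samples as well: without L2/3 IT CTX-1 there were 0 and 1, with the male library alone 0 and 0 (70 and 66 unadjusted), with the female library alone 1 and 2, and with DESeq2 0 and 0 (75 and 65 unadjusted). All 18 genes kept their direction in every alternative in which they were tested. The genes were chosen by the main fit and the alternatives largely reuse its nuclei, so kept directions are not independent support.

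**Figure D3:**
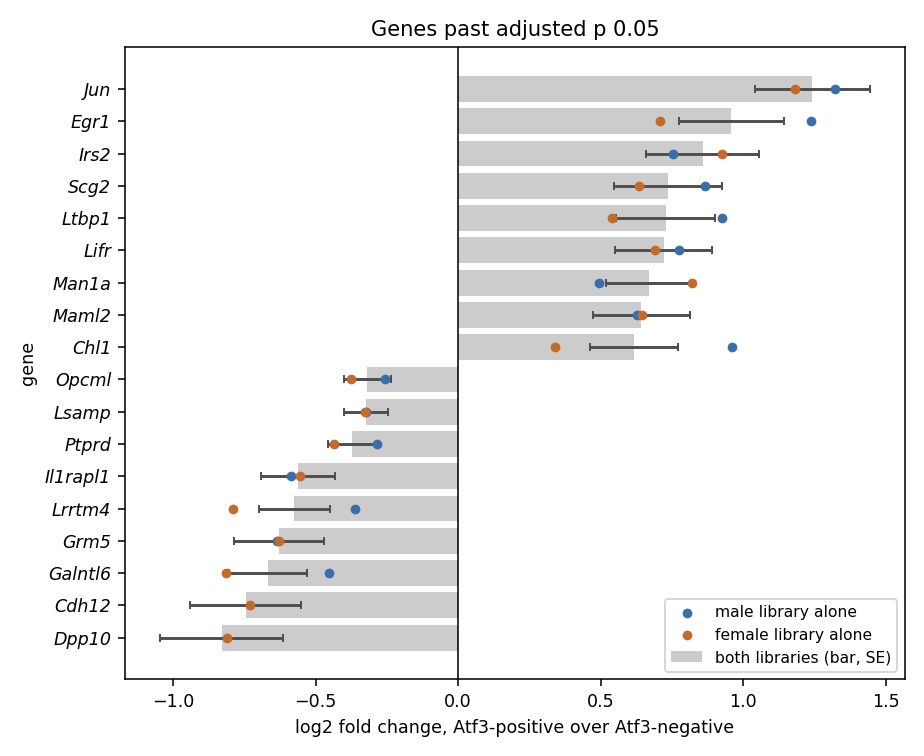
Log2 fold change of the 18 genes past the threshold, positive over negative nuclei. Bars are the estimate from both libraries with its SE, and points are each library fitted alone where the gene passed its filter (*Cdh12* and *Dpp10* have no male point). *Jun* rose most, by 1.24, and *Dpp10* fell most.

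*Jun* (chr4:95049034-95052222 on GRCm38, minus strand), the AP-1 subunit that pairs with ATF3, rose by 1.24 ± 0.20 (log2 fold change ± SE, adjusted p = 0.000302), a fold of 2.36. Female positive and negative sums held 449 and 200 CPM in L2/3 IT CTX-1, 278 and 134 CPM in L5 PT CTX, and 1146 and 284 CPM in L6 IT CTX. Male sums held 410 and 74.9 CPM in L2/3 IT CTX-1 and 288 and 86.8 CPM in L5 PT CTX. All 5 excitatory pairs were thus higher on the positive side, and within L2/3 IT CTX-1 and L5 PT CTX both positive sums exceeded both negative sums. In the female L6 IT CTX pair, the 44 UMIs came from 9 of 19 positive nuclei, 13 of them from 1 nucleus.

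In interneurons the levels of *Jun* were lower and less regular. Female positive and negative sums held 87.9 and 75.9 CPM in *Pvalb*, 70.5 and 55.7 CPM in *Sst*, and 227 and 55.2 CPM in *Vip*, the last from 5 and 2 UMIs. Male sums went the other way, with 41.0 and 87.4 CPM in *Pvalb* and 28.3 and 67.9 CPM in *Sst*. Fitted over the excitatory pairs alone, *Jun* rose by 1.60 ± 0.19 (adjusted p = 4.96e-09). The difference between inhibitory and excitatory pairs was -1.64 ± 0.40 with an adjusted p = 0.0779, which did not pass.

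*Egr1*, an immediate early zinc finger factor, rose by 0.96 ± 0.18 (adjusted p = 0.0037) and was higher in 8 of 10 pairs. Positive sums ran from 0 to 625 CPM with a median of 178 CPM, and negative sums from 27.6 to 296 CPM with a median of 119 CPM. The 2 pairs without a rise were female *Pvalb* (109 and 110 CPM) and female *Vip* (0 and 1 UMI). *Scg2*, which encodes the granin secretogranin II of dense-core vesicles, rose by 0.74 ± 0.19 (adjusted p = 0.0403). It was higher in 7 of 10 pairs and in all 5 excitatory ones, for example 347 against 139 CPM in male L2/3 IT CTX-1. In that pair, 8 of the 22 positive UMIs came from 1 nucleus. *Scg2* was called in 3 of the 23 alternatives that tested it. In the inhibitory pairs alone its estimate was 0.07 ± 0.34. A difference between the classes did not pass the test for either gene (adjusted p = 0.531 for both).

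*Lifr*, the receptor for leukemia inhibitory factor that signals through STAT3, was the gene higher in positive nuclei in all 10 pairs among the 9 that rose. It is at chr15:7090614-7197489 on the plus strand and rose by 0.72 ± 0.17 (adjusted p = 0.0212). Positive sums ran from 69.2 CPM in male L5 PT CTX to 419 CPM in female *Pvalb*, and negative sums from 27.6 to 297 CPM. Male *Sst* sums held 297 CPM against 89.1 CPM. Male *Pvalb* sums, at 277 and 237 CPM, were closest to each other in proportion. *Irs2*, the adaptor of the insulin and IGF1 receptors, rose by 0.86 ± 0.20 (adjusted p = 0.0203), with medians of 166 and 81.5 CPM, and was higher in 8 of 10 pairs. *Ltbp1*, which binds latent TGF-β in the matrix, rose by 0.73 ± 0.17 (adjusted p = 0.0212). Its highest levels were in *Pvalb* sums, at 419 against 276 CPM in the female and 533 against 331 CPM in the male library. It was higher in 7 of 10 pairs, and lower in both *Sst* pairs and in female *Vip* (45.3 against 110 CPM). The excitatory pairs alone gave 1.15 ± 0.25 (adjusted p = 0.00317) and the inhibitory pairs 0.38 ± 0.22 (adjusted p = 0.829). The difference between the classes did not pass (adjusted p = 0.531).

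The other 3 genes that rose were most abundant in *Sst* sums. *Man1a*, a Golgi mannosidase that trims N-glycans, rose by 0.67 ± 0.15 (adjusted p = 0.0203) and passed in the inhibitory pairs alone (0.80 ± 0.18, adjusted p = 0.0204), with 0.39 ± 0.23 in excitatory pairs and no class difference that passed (adjusted p = 0.856). Its female *Sst* sums held 977 and 501 CPM. *Maml2*, a coactivator of Notch, rose by 0.64 ± 0.17 (adjusted p = 0.0472). *Chl1*, a close relative of the adhesion molecule L1 and a regeneration-associated gene, rose by 0.62 ± 0.15 (adjusted p = 0.0334), with 777 against 577 CPM in male *Sst* and 254 against 109 CPM in male L5 PT CTX.

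**Figure D4:**
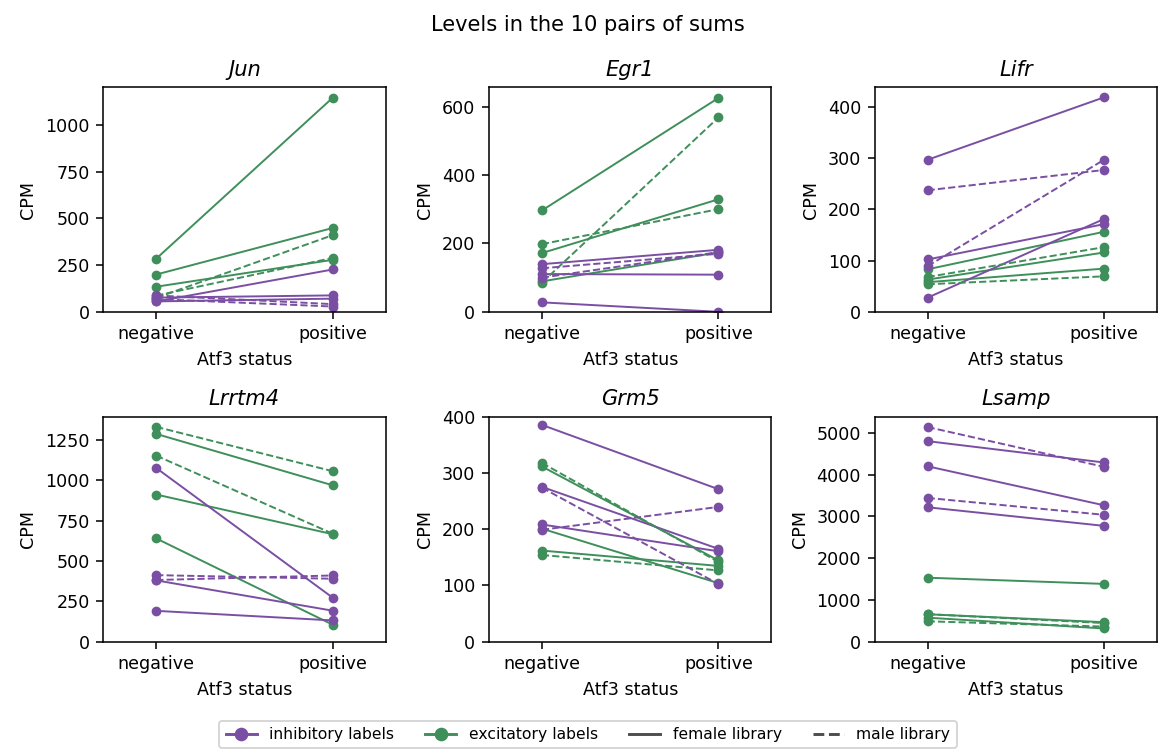
Levels of 6 genes in CPM on the negative and positive side of the 10 pairs, each line 1 library and subclass label, with excitatory labels in green, inhibitory labels in purple, and the male library dashed. *Jun* and *Egr1* rise steeply in the green lines, *Lifr* rises in all 10 pairs, and *Lsamp* falls in all 10.

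Among the genes that fell were synaptic receptors and adhesion molecules. *Lrrtm4*, a postsynaptic adhesion molecule of excitatory synapses (chr6:80018877-80810143), fell by 0.57 ± 0.12 on the log2 scale (adjusted p = 0.0132). Positive sums ran from 104 to 1057 CPM with a median of 400 CPM, and negative sums from 190 to 1332 CPM with a median of 776 CPM. It was lower in 9 of 10 pairs, most in female L6 IT CTX (104 against 640 CPM) and female *Vip* (272 against 1077 CPM). *Grm5*, the metabotropic glutamate receptor mGluR5 (chr7:87584168-88134907), fell by 0.63 ± 0.16 (adjusted p = 0.0334) and was lower in 9 of 10 pairs, with 142 against 319 CPM in male L2/3 IT CTX-1 and 103 against 275 CPM in male *Pvalb*.

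*Ptprd*, a receptor phosphatase of presynaptic terminals, fell by 0.37 ± 0.09 (adjusted p = 0.0209). Its binding partner *Il1rapl1* fell by 0.56 ± 0.13 (adjusted p = 0.0203). In male L2/3 IT CTX-1, *Il1rapl1* was at 584 against 1104 CPM. The IgLON adhesion molecules *Lsamp* and *Opcml* fell by 0.32 ± 0.08 each (adjusted p = 0.0261 and 0.0403). *Lsamp* was lower in positive nuclei in 10 of 10 pairs, from 312 against 571 CPM in female L5 PT CTX to 4289 against 4800 CPM in female *Sst*. *Opcml* was lower in 9 of 10 pairs, in proportion most in female *Vip* (634 against 1132 CPM) and least in female L5 PT CTX (2007 against 2026 CPM). In female L2/3 IT CTX-1 it was at 2272 against 3397 CPM, and it was higher in male *Sst* (1767 against 1544 CPM).

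*Cdh12*, a type II cadherin (chr15:20449265-21589533), fell by 0.74 ± 0.19 (adjusted p = 0.0403). The inhibitory pairs alone gave -1.48 ± 0.35 (adjusted p = 0.0251) and the excitatory pairs -0.39 ± 0.23 (adjusted p = 0.522), and the difference between the classes did not pass (adjusted p = 0.504). Inhibitory sums held 20.7 against 104 CPM in female *Pvalb*, 60.4 against 139 CPM in female *Sst* and 70.7 against 161 CPM in male *Sst*. *Galntl6*, of the family of enzymes that start O-glycans, fell by 0.67 ± 0.14 (adjusted p = 0.00757) and passed in inhibitory pairs alone (-0.64 ± 0.15, adjusted p = 0.0215) but not in excitatory pairs (-0.82 ± 0.28, adjusted p = 0.152), with no class difference that passed (adjusted p = 0.985). Its female *Pvalb* sums held 362 and 656 CPM. There, 1 negative nucleus gave 22 of the 95 negative UMIs, and 41 of 84 positive and 26 of 63 negative nuclei had the transcript. *Dpp10*, an auxiliary subunit of Kv4 potassium channels, was named after its values were seen, since it passed no filter in the male library alone. It fell by 0.83 ± 0.22 (adjusted p = 0.0403), with 63.1 against 291 CPM in male and 188 against 395 CPM in female L2/3 IT CTX-1. It was lower in 8 of 10 pairs and higher in both *Sst* pairs (121 against 88.2 CPM in female, 226 against 178 CPM in male nuclei). The excitatory pairs alone gave -1.13 ± 0.26 (adjusted p = 0.00693) and the inhibitory pairs -0.48 ± 0.33 (adjusted p = 0.853). The difference between the classes did not pass (adjusted p = 0.824).

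The genes that fell are also very long, a trait looked at after their names were known. All 9 span over 500 kb on GRCm38, from 551 kb for *Grm5* to 2271 kb for *Ptprd*, with a median of 1139 kb. None of the 9 that rose does, with spans from 3.19 kb for *Jun* to 411 kb for *Maml2* and a median of 107 kb. Of the 1794 genes tested with a span, 9.20% were over 500 kb. Over all genes tested, the median log2 fold change was 0.05 in the 317 genes up to 50 kb, 0.02 in the 915 from 50 to 200 kb, -0.02 in the 397 from 200 to 500 kb, and -0.08 in the 165 over 500 kb. Estimates were above 0 in 58.7% of the shortest and 31.5% of the longest. The order was the same in each library alone, with medians of 0.03 and -0.08 for the shortest and longest genes from male and 0.05 and -0.07 from female nuclei. The medians were 0.10 and -0.16 in excitatory pairs alone and 0.02 and -0.05 in inhibitory pairs alone. These medians are descriptions, since genes are not replicates and the counts include intronic reads.

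Levels are also given by the number of drawn *Atf3* UMIs, in *Pvalb* and *Sst* of both libraries. These are the UMIs that set the status, and the 18 genes were called on that status, so a step away from 0 UMIs is built in and nothing is supported by it. The step from 1 UMI to at least 2 went further in the called direction in 4 of 4 library and subclass combinations for 6 of the 18 genes, in 3 for 6, in 2 for 3, in 1 for 2 (*Dpp10* and *Ptprd*) and in 0 for 1 (*Scg2*). The CPM values that follow carry no scaling factors. In female *Pvalb* nuclei, *Lifr* was at 297, 280 and 559 CPM with 0, 1 and at least 2 *Atf3* UMIs (63, 42 and 42 nuclei). *Cdh12* was at 104, 41.4 and 0 CPM in the same nuclei, the last being 0 UMIs in 42 nuclei, where 3 UMIs would be 31.1 CPM. *Jun* was higher at 1 UMI than at 0 in 0 of 4 combinations and at 2 or more in 2 of 4. In the excitatory labels, *Jun* was at 79.9, 266 and 725 CPM in male L2/3 IT CTX-1 nuclei, the last from 15 UMIs in 9 nuclei. In female L2/3 IT CTX-1 nuclei it was at 194, 343 and 580 CPM, the last from 16 UMIs in 12 nuclei. In L5 PT CTX it was at 93.7, 290 and 435 CPM in male nuclei, the last from 3 nuclei, and at 137, 276 and 254 CPM in female nuclei. Not every gene that rose stepped up there. *Lifr* was at 72.5, 169 and 48.3 CPM in male and 61.2, 68.6 and 181 CPM in female L2/3 IT CTX-1 nuclei. In L5 PT CTX *Lifr* was at 58.1, 79.1 and 0 CPM in male and 59.1, 95.4 and 36.2 CPM in female nuclei.

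Positive excitatory nuclei were not spread over the deposited clusters as negative ones were. Cluster 14, a cluster that several labels share, held 28 of 166 positive and 31 of 940 negative excitatory nuclei of the tested pairs, 16.9% and 3.30%, and no inhibitory nucleus. In L2/3 IT CTX-1 the shares were 18.5% and 0.855% of male and 19.4% and 3.88% of female nuclei. In L5 PT CTX they were 13.9% and 6.03%, and 18.9% and 2.19%. The clusters were made from the same counts, so this is a description. Without that cluster, 2 genes rose (*Lifr* and *Man1a*) and 4 fell, and *Jun*, *Irs2*, *Scg2* and *Ltbp1* did not pass the filter on low counts. *Egr1* (0.75, adjusted p = 0.0574), *Chl1* (0.63, adjusted p = 0.0536) and *Maml2* (0.64, adjusted p = 0.0752) were tested and no longer passed. The mean level of *Jun* in the excitatory pairs was 487 CPM in positive and 153 CPM in negative sums with cluster 14, and 317 and 115 CPM without it, and remained higher in the positive sum of all 5 pairs.

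Many genes of known stress and synaptic programs were too low for the test at 2300 UMIs. The same nuclei with the same status were therefore fitted with all of their UMIs, which tested 5201 genes. In this fit 23 genes rose (0.442%) and 44 fell (0.846%). The median log2 fold change over all genes was -0.0024, and 49.5% of the estimates were above 0. This fit called 13 of the 18 genes above, all but *Scg2*, *Ltbp1*, *Lifr*, *Chl1* and *Opcml*. The deepest nuclei weigh most in these sums.

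Transcription factors of the AP-1 and related bZIP group, the possible partners of ATF3, were split. Of 6 members tested at 2300 UMIs, *Jun* rose and the median was 0.18, against 0.01 for all genes. Of 18 tested with all UMIs, *Jun* and *Jund* rose and none fell, with a median of 0.05. Of all genes, 0.501% rose and 0.501% fell at 2300 UMIs, and 0.442% rose and 0.846% fell with all UMIs. That none of 18 fell is near that share. *Jund*, another JUN protein, rose by 1.35 ± 0.20 (adjusted p = 0.000408). *Ddit3*, which encodes CHOP of the integrated stress response, gave 0.54 ± 0.20 (adjusted p = 0.272) over all pairs and 0.21 ± 0.16 (adjusted p = 0.743) with all UMIs. It passed in 1 of 17 fits that tested it, the excitatory pairs alone at 0.87 ± 0.20 (adjusted p = 0.00693), and the difference between the classes did not pass (adjusted p = 0.276).

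Regeneration-associated genes were mostly on the higher side. At 2300 UMIs 22 of 73 were tested and 17 estimates were above 0, with a median of 0.24, and *Lifr*, *Chl1* and *Scg2* rose while none fell. With all UMIs 38 were tested, 30 estimates were above 0, 5 rose and none fell, with a median of 0.19. Over all genes, 51.5% of the estimates were above 0 at 2300 UMIs and 49.5% with all UMIs. The shares of all genes that rose were 0.501% and 0.442%. *Npy*, a neuropeptide, rose by 1.25 ± 0.25 (adjusted p = 0.00584), and *Sprr1a*, which promotes axon growth, by 0.74 ± 0.17 (adjusted p = 0.0157). *Stat3*, which acts downstream of LIFR, rose by 0.66 ± 0.13 (adjusted p = 0.0058), *Sema6a*, a transmembrane semaphorin, by 0.58 ± 0.11 (adjusted p = 0.00406), and *Cd44*, a hyaluronan receptor, by 0.51 ± 0.13 (adjusted p = 0.0376). At 2300 UMIs *Npy*, *Sprr1a* and *Stat3* were too low to test, and *Sema6a* (0.29 ± 0.17, adjusted p = 0.569) and *Cd44* (0.48 ± 0.15, adjusted p = 0.123) did not pass. *Sox11*, a factor of immature and regrowing neurons, was higher in 10 of 10 pairs but by little, 0.26 ± 0.12 (adjusted p = 0.448). *Gap43*, a growth cone protein, gave 0.30 ± 0.12 (adjusted p = 0.312) and *Stmn2*, a tubulin-binding protein of growing axons, 0.39 ± 0.11 (adjusted p = 0.0797).

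The stress panel of the study was chosen by its authors for these nuclei, so its direction here is not independent evidence. The other gene lists were chosen with earlier results of these data known, so their directions are not independent evidence either. Of its members, 8 of 16 were tested at 2300 UMIs and only *Jun* rose. With all UMIs all 16 were tested, and *Jun*, *Sprr1a* and *Stat3* rose. Of all genes, 0.501% rose at 2300 UMIs and 0.442% with all UMIs. *Ecel1*, a peptidase induced by nerve injury, did not pass, at 0.17 ± 0.12 (adjusted p = 0.686), with medians of 391 CPM in positive and 396 CPM in negative sums. *Ret*, a receptor of the GDNF family (0.16 ± 0.17, adjusted p = 0.825), *Nmnat2*, an axon survival factor (-0.09 ± 0.12, adjusted p = 0.876), *Htt* (0.02 ± 0.15, adjusted p = 0.984) and *Eif2ak3*, which encodes PERK (0.01 ± 0.20, adjusted p = 0.991), did not pass either.

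In further stress programs, no member passed. Of 52 genes of the integrated stress and unfolded protein response, 10 were tested at 2300 UMIs (median 0.04) and 24 with all UMIs (median 0.00). None passed. Over all genes at 2300 UMIs, 0.501% rose and 0.501% fell, and with all UMIs 0.442% rose and 0.846% fell. In lists of this size, here and below, no call is near the share of all genes. It does not set these programs apart. At an unadjusted p under 0.05, 3 of the 10 were higher and 0 lower, and with all UMIs 1 was higher and 1 lower. The p53 targets and apoptosis regulators had 5 and 12 tested, with medians of -0.07 and 0.06. DLK and JNK signaling genes, the kinases upstream of JUN in injured axons, had 8 and 19 tested, with medians of 0.03 and -0.02. Of 13 heat shock and chaperone genes tested with all UMIs, 9 estimates were above 0, with a median of 0.16, and 4 were higher at an unadjusted p under 0.05. The cytoskeleton and axon transport list had 22 and 24 tested, with medians of 0.05 and 0.06.

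Genes of activity had few members tested. Of 4 activity-dependent genes tested at 2300 UMIs, *Egr1* and *Scg2* rose and all 4 estimates were above 0, with a median of 0.61. With all UMIs 8 were tested, only *Egr1* rose and the median was 0.15. Of all genes, 0.501% rose at 2300 UMIs and 0.442% with all UMIs. Estimates above 0 made up 51.5% and 49.5% of all genes, with medians of 0.01 and -0.0024. *Scg2* is counted among the regeneration-associated genes as well.

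Receptors, channels and adhesion molecules leaned to the lower side. Over all genes tested, 51.5% of the estimates were above 0 at 2300 UMIs and 49.5% with all UMIs. The shares of all genes that fell were 0.501% and 0.846%. Of the glutamate and GABA receptor subunits, 21 were tested at 2300 UMIs, 15 estimates were below 0, with a median of -0.15, and *Grm5* fell. With all UMIs 29 were tested, 24 were below 0, with a median of -0.19, and the AMPA receptor subunits *Gria3* (-0.68 ± 0.14, adjusted p = 0.00571) and *Gria4* (-0.68 ± 0.16, adjusted p = 0.0217) fell beside *Grm5*. At 2300 UMIs *Gria3* (-0.60 ± 0.17, adjusted p = 0.074) and *Gria4* (-0.49 ± 0.20, adjusted p = 0.34) did not pass. Of 27 voltage-gated channel genes tested at 2300 UMIs, none passed in either direction, with a median of -0.07 and 0 higher and 5 lower at an unadjusted p under 0.05. Of 40 tested with all UMIs, 30 were below 0, with a median of -0.11. The potassium channel genes *Kcnq5* (-0.49 ± 0.10, adjusted p = 0.0112) and *Kcnd3* (-0.50 ± 0.13, adjusted p = 0.0483) fell, and at 2300 UMIs they had not passed (adjusted p = 0.175 and 0.307). *Kcnd3* encodes a Kv4 channel, of which the protein of *Dpp10* is an auxiliary subunit.

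The axon guidance and adhesion list held the most genes that fell. At 2300 UMIs 36 were tested with a median of -0.10, and *Lrrtm4* and *Cdh12* fell. With all UMIs 50 were tested, 39 were below 0, with a median of -0.20, 7 fell (against 0.846% of all genes) and *Sema6a* rose. Beside *Lrrtm4* and *Cdh12*, these were the cadherins *Cdh10* (-1.34 ± 0.23, adjusted p = 0.0015) and *Cdh18* (-0.98 ± 0.19, adjusted p = 0.00466), *Cntnap5a*, a contactin-associated protein (-0.80 ± 0.14, adjusted p = 0.00122), the Slit receptor *Robo1* (-0.62 ± 0.15, adjusted p = 0.0291) and the teneurin *Tenm2* (-0.57 ± 0.12, adjusted p = 0.00755). At 2300 UMIs *Cdh10* and *Cdh18* were too low to test, and *Cntnap5a*, *Robo1* and *Tenm2* did not pass (adjusted p = 0.0657, 0.087 and 0.074). Of the 44 genes that fell with all UMIs, 26 span over 500 kb (59.1%, against 3.81% of the genes tested), and 0 of the 23 that rose do. The role of a gene and its length were not tested apart.

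**Figure D5:**
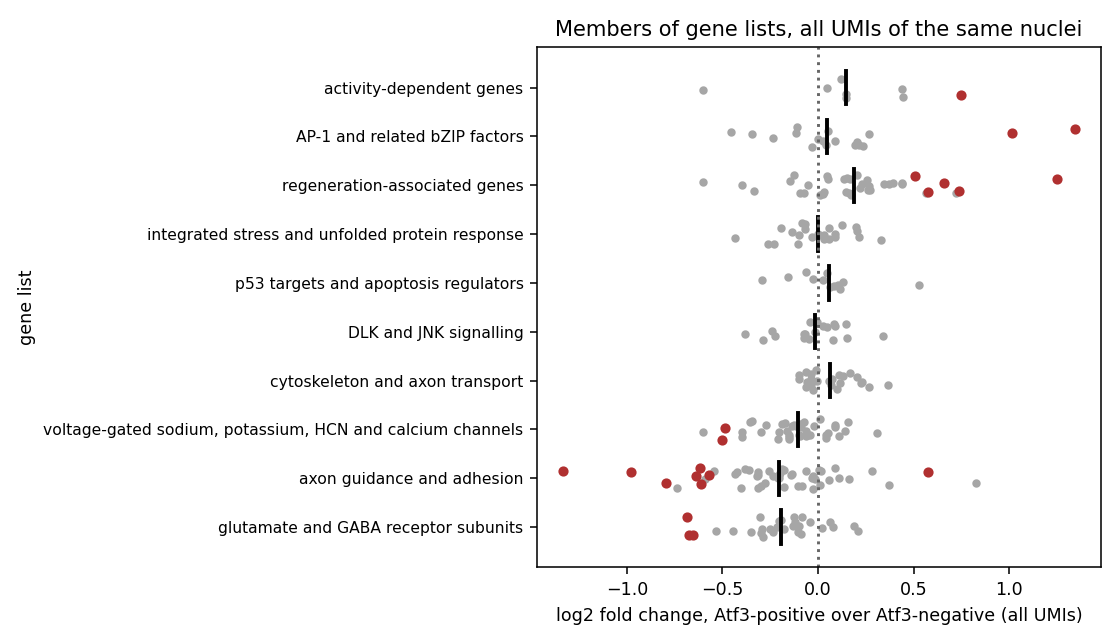
Log2 fold changes of the members of 10 gene lists with all UMIs of the same nuclei, positive over negative. Each point is a gene, red points pass an adjusted p of 0.05, black bars are list medians and the dotted line is the median of all genes. Regeneration-associated genes have a median of 0.19 and receptor subunits and adhesion genes medians of -0.19 and -0.20.

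Markers of neuronal identity were compared within a label, which already fixes much of that identity. None of the 8 general neuron markers passed, which is near the share of all genes, of which 0.501% rose and 0.501% fell. The summed level of these markers ran from 20515 to 45554 CPM in positive and from 21054 to 44605 CPM in negative sums. The marker genes of the study that passed the filter were *Cux2* of upper layers (-0.11 ± 0.15, adjusted p = 0.870) and the GABA synthesis enzymes *Gad1* (-0.07 ± 0.22, adjusted p = 0.941) and *Gad2* (0.19 ± 0.18, adjusted p = 0.801). None of the 3 passed. The reporter transcript was sparse, with 3 UMIs in 133 positive and 10 UMIs in 631 negative male nuclei, and 7 UMIs in 241 and 17 UMIs in 649 female nuclei. That is 9.81 against 6.89 CPM and 12.6 against 11.4 CPM.

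Markers of other cells were present on both sides. The 16 microglial markers summed to 543 to 1968 CPM in positive sums (median 833 CPM) and 474 to 1793 CPM in negative sums (median 830 CPM), and were higher on the positive side in 8 of 10 pairs. Of them, *Tmem119*, *C1qc* and *Cd74* were at 0 in the positive sums. Free RNA held these markers at 3313 CPM for the male and 3643 CPM for the female library. Without the nuclei holding at least 2 microglial UMIs, 186 of 374 positive and 598 of 1280 negative, 7 pairs were left and 2 genes rose and 4 fell. The 8 astrocyte markers summed to 19.8 to 261 CPM in positive and 30.7 to 217 CPM in negative sums, with *Gja1* at 0 in the positive ones. Their part in the differences was not tested further.

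For quality measures, no mean difference over the 10 pairs passed. UMIs per nucleus before thinning differed by -0.09 ± 0.15 on the log2 scale (SD over 10 pairs), with positive nuclei higher in 2 of 10 pairs (exact sign-flip permutation test, two-sided p = 0.102, adjusted p = 0.305). Genes detected per thinned nucleus averaged 1161 in positive and 1164 in negative nuclei, a difference of -2.57 ± 17.2 (exact permutation p = 0.645, adjusted over 3 measures 0.645). The mitochondrial percent averaged 0.159 and 0.196, a difference of -0.037 ± 0.103 (exact permutation p = 0.287, adjusted p = 0.431). It was lower in positive nuclei in all 4 *Pvalb* and *Sst* pairs, by means from -0.0603 to -0.227, where differences of the medians ran from -0.0174 to 0.00227. The other 6 pairs ran from -0.077 to 0.147. The smallest p that 10 pairs allow in this exact test is 0.00195.

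Whether the status difference itself differed between inhibitory and excitatory pairs was tested in the same model. Of 1795 genes, 3 passed (0.167%), and all 3 were named after their values were seen. *Pcdh15*, a protocadherin, differed by 1.47 ± 0.34 (inhibitory minus excitatory, adjusted p = 0.0442), with -1.17 in excitatory and 0.31 in inhibitory pairs. The mitochondrial genes *mt-Co3* (-1.29 ± 0.27, adjusted p = 0.0318) and *mt-Nd1* (-1.76 ± 0.39, adjusted p = 0.036) went the other way. In inhibitory pairs alone *mt-Co3* fell by 1.14 ± 0.21 (adjusted p = 0.00159) and *mt-Nd1* by 1.36 ± 0.29 (adjusted p = 0.0147). With all UMIs, *mt-Co3* (-0.64 ± 0.16, adjusted p = 0.0366) and *mt-Co2* (-0.66 ± 0.17, adjusted p = 0.0387) fell over all pairs. Single nuclei held many of these UMIs. In male *Pvalb* negative nuclei, 1 nucleus gave 51 of 115 UMIs of *mt-Co3* and 23 of 44 of *mt-Nd1*, and in female L5 PT CTX negative nuclei 1 nucleus gave 30 of 116 of *Pcdh15*.

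Promoters of the called genes were searched for the letters that ATF3 dimers are known to bind, and the sites found are shown to give the match in its setting. RefSeq promoters (GRCm38.p6, from 250 bases before to 50 after a start) were at hand for 8 of the 9 genes that rose and 7 of the 9 that fell. The CRE, TGACGTCA, searched on both strands, was in 2 of the 8 (2 of 11 promoters) and in 0 of the 7. It was in 3.19% of 2005 promoters of the genes tested and in 1.79% of all 32851 promoters. The 2 genes with a CRE, *Scg2* and *Ltbp1*, were called in 3 of 23 and 7 of 24 alternatives that tested them. Neither was called with all UMIs. The AP-1 letters, TGACTCA or TGAGTCA, were in no promoter of the 8 and the 7 called genes, in 3.04% of the 2005 promoters of the genes tested and in 5.20% of all promoters. The CRE sites, in capitals, are shown 5′ to 3′ on the gene's strand with the bases around them.
*Scg2*, chr1:79440076-79440105, minus strand: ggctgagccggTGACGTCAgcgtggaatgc
*Ltbp1*, chr17:75005445-75005474, plus strand: gatttgctgccTGACGTCAcgtctgctgca
The site lies 60 bases before the RefSeq start of *Scg2* and 65 bases before that of *Ltbp1*. By the GENCODE start, its first base is 26 bases inside *Scg2* and 112 bases before *Ltbp1*. A match is a description of these letters, and binding was not measured.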

How the data were processed

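The authors made UMI counts with CellRanger against GRCm38 pre-mRNA plus the reporter sequence, and deposited them raw, for called and for all barcodes. File headers name version 7.0.1 for the male, 7.0.0 for the female library, and 4 for all barcodes. Subclass, cluster, and the mitochondrial percent of each nucleus come from the table deposited by the authors. Their depth-corrected matrix, a score, was not used, nor was any doublet caller.

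Counts were thinned to 2300 UMIs per nucleus (seed 1), and summed per library, label and status. Sums were tested with edgeR 4.0.16 in R 4.3.3, using TMM factors, filterByExpr, library and label pair as a block, the quasi-likelihood test and Benjamini-Hochberg adjustment. Both sums of a pair come from the same library and label, which pairs them. CPM used TMM factors. The fit was tested on simulated data. Other values used Python 3.11.15, SciPy 1.17.1. Intervals are Clopper-Pearson.

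Named were the 12 largest called changes per direction that both libraries alone shared in direction, called list members, and the study's panels. Members and lists were chosen with earlier results of these data known. Alternatives covered factors, filter, block, unit, depth, seed, status rule, libraries, labels, classes and DESeq2 1.42.0. Positions are from GENCODE vM21.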

Additional observations from a re-analysis of the deposited data

Results flagged for a closer look

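The status difference differed between inhibitory and excitatory pairs, by a test of the difference itself, in 3 genes. The log2 status difference, inhibitory minus excitatory, was 1.47 for *Pcdh15*, -1.29 for *mt-Co3* and -1.76 for *mt-Nd1* (edgeR's quasi-likelihood test, adjusted p = 0.0442, 0.0318 and 0.036). *Pcdh15* gave -1.17 in excitatory and 0.31 in inhibitory pairs. No gene passed this test with the male library alone (54 and 57 at an unadjusted p under 0.05), with the female library alone (38 and 46), or with DESeq2 (32 and 43).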

How the results depend on the processing

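The 18 called genes kept their sign in 445 of 445 combinations of gene and alternative (26 alternatives), and calls changed far more than signs. These genes were chosen by the main fit and the alternatives largely reuse its nuclei, so kept signs were largely built in. Numbers of genes are given as higher and lower in positive nuclei, against 9 and 9. With no replicate block, which unpairs the sums of a library and label, there were 2 and 1. All UMIs gave 23 and 44, the undrawn UMIs 5 and 26, and 4600 UMIs 13 and 25. Seed 2 gave 16 and 10, and seed 3 gave 4 and 4. A threshold of 2 *Atf3* UMIs gave 8 and 4, and any *Atf3* UMI before thinning 19 and 40. With no filter there were 7 and 60 of 18847 genes, where the median of all genes shifted to -0.23. Excitatory labels alone gave 15 and 14, and inhibitory labels 2 and 7. The library as the unit gave 16 and 20, from 2 pairs of sums with 1 residual degree of freedom. Its 397 negative nuclei were drawn to the label makeup of the positive ones. With 2 pools, that fit cannot show the spread between animals. Leaving out L2/3 IT CTX-1 gave 0 and 1, L5 PT CTX 3 and 7, *Pvalb* 3 and 8, *Sst* 3 and 7, and nuclei with microglial UMIs 2 and 4. DESeq2 gave 0 and 0 (smallest adjusted p 0.0646). Leaving out 1 library gave 0 to 1 and 0 to 2. After seeing the data, leaving out cluster 14 (2 and 4) and keeping only the most common cluster of each label (2 and 0) were added. The 3 class differences became 6 without a filter and with undrawn UMIs, 16 with all UMIs, 1 at 4600 UMIs, and 0 with seed 3, any *Atf3* UMI, the most common cluster, no microglial UMIs, DESeq2 or 1 library left out. Genes detected turned to 0.680 with at least 20 nuclei per side and to 0.55 by medians, and mitochondrial percent to 0.00376 by medians. The causes were not tested. Depth limited which genes could be tested, 1795 of the 18847 with a UMI.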
